A study of Mus musculus with 14 samples.

Results

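The enzymes that break down glucose, rebuild it and store it as glycogen were followed by their transcripts in intervertebral discs of 2 mouse models of type 2 diabetes. There are 35 such genes here, chosen by name, out of 55487 genes counted in the series. They comprise 5 isozymes typical of striated muscle (*Pfkm*, *Pgam2*, *Eno3*, *Fbp2* and *Pygm*), 17 enzymes that most cells use, and 13 others, which are inducible forms or forms typical of other tissues. Of the 35 genes, 33 passed the filter on low counts (more than 1 CPM, a count scaled to the size of its library, in at least 3 libraries) and were tested, while *Hk3* and *Fbp1* did not pass it.

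Discs were taken from the tails of male mice, and the 5 discs of a mouse were pooled into 1 RNA sample. The db/db mice (n = 3) are homozygous for the *Lepr* db mutation, which disables the leptin receptor, and their db/+ littermates (n = 3) are heterozygous carriers, so both groups hold the mutant allele. Both were 3 months old. The STZ-HFD mice (n = 4) were C57BL/6J mice that received a high-fat diet from 12 weeks of age, a single injection of streptozotocin at 100 mg/kg after 4 to 6 weeks, and the same diet for a further 12 weeks, when discs were taken. The Con+Veh mice (n = 4), labelled wild type, were C57BL/6J mice on standard chow that received the buffer alone, also from 12 weeks of age and on the same schedule. The high-fat diet held 80% of its calories as fat by the sample labels and 60% by the methods. Streptozotocin kills insulin-producing beta cells. Each model had its own control, and the cohorts differed in age, so levels are compared within a cohort.

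Glycolysis splits glucose into pyruvate in the cytosol and yields ATP without oxygen. Discs have few blood vessels, and their cells are known to rely on it. Several steps are catalysed by isozymes from separate genes, and striated muscle uses its own forms of phosphofructokinase, phosphoglycerate mutase, enolase and glycogen phosphorylase. Gluconeogenesis reverses the pathway with its own enzymes at the irreversible steps, among them phosphoenolpyruvate carboxykinase and fructose-1,6-bisphosphatase. Glycogen is built by glycogen synthase and the branching enzyme and is released by glycogen phosphorylase.

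The models differed in these genes. In STZ-HFD discs, 7 members rose and none fell, and 4 of the 5 muscle isozymes were among those that rose. *Fbp2*, 1 of the 7, passed the filter on low counts only through the STZ-HFD libraries, so its difference was built into the choice and gives no support, which leaves 6 members and 3 of the other 4 muscle isozymes. In db/db discs, 1 member rose, *Pck1*, and it was the one member that rose in both models. Rose, fell and called are used of genes with a Benjamini-Hochberg adjusted p below 0.05 over the 16915 genes tested (limma with voomWithQualityWeights) whose absolute log2 fold change was 1 or more. The background of calls over all tested genes was 1.3% higher and 1.31% lower in STZ-HFD, and 1.23% higher and 0.432% lower in db/db. The difference between the models, tested directly as the STZ-HFD change minus the db/db change, was called for 6 members, all toward a higher value in STZ-HFD, against 0.952% of all tested genes in that direction. At an unadjusted p under 0.05, 14 members passed in db/db, 10 of them below 0, 22 passed in STZ-HFD, 4 of them below 0, and 19 passed for the difference, where 21.1%, 17.9% and 17.3% of all tested genes did. No member was called lower in either model by limma, edgeR's quasi-likelihood test or DESeq2.

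The median log2 fold change of the 5 muscle isozymes was -0.76 in db/db and 1.37 in STZ-HFD, and -0.75 and 1.27 without *Fbp2*. For the 17 ubiquitous enzymes it was -0.27 and 0.50, and for the 11 tested members of the other class -0.24 and 0.46. Over all tested genes the medians were -0.043 and -0.036. *Pfkm*, *Eno3*, *Pygm* and *Pgam2* all lay below 0 in db/db and above 0 in STZ-HFD. *Fbp2* lay on the same sides, but its side in STZ-HFD was built in by the filter and its db/db value rests on few reads. The ubiquitous enzymes were mixed, with 6 above and 11 below 0 in db/db and 12 above and 5 below 0 in STZ-HFD. Of all tested genes, 47.3% lay above and 52.7% below 0 in db/db, and 47.2% and 52.8% in STZ-HFD. These medians describe a chosen list and carry no test.

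**Figure D1:**
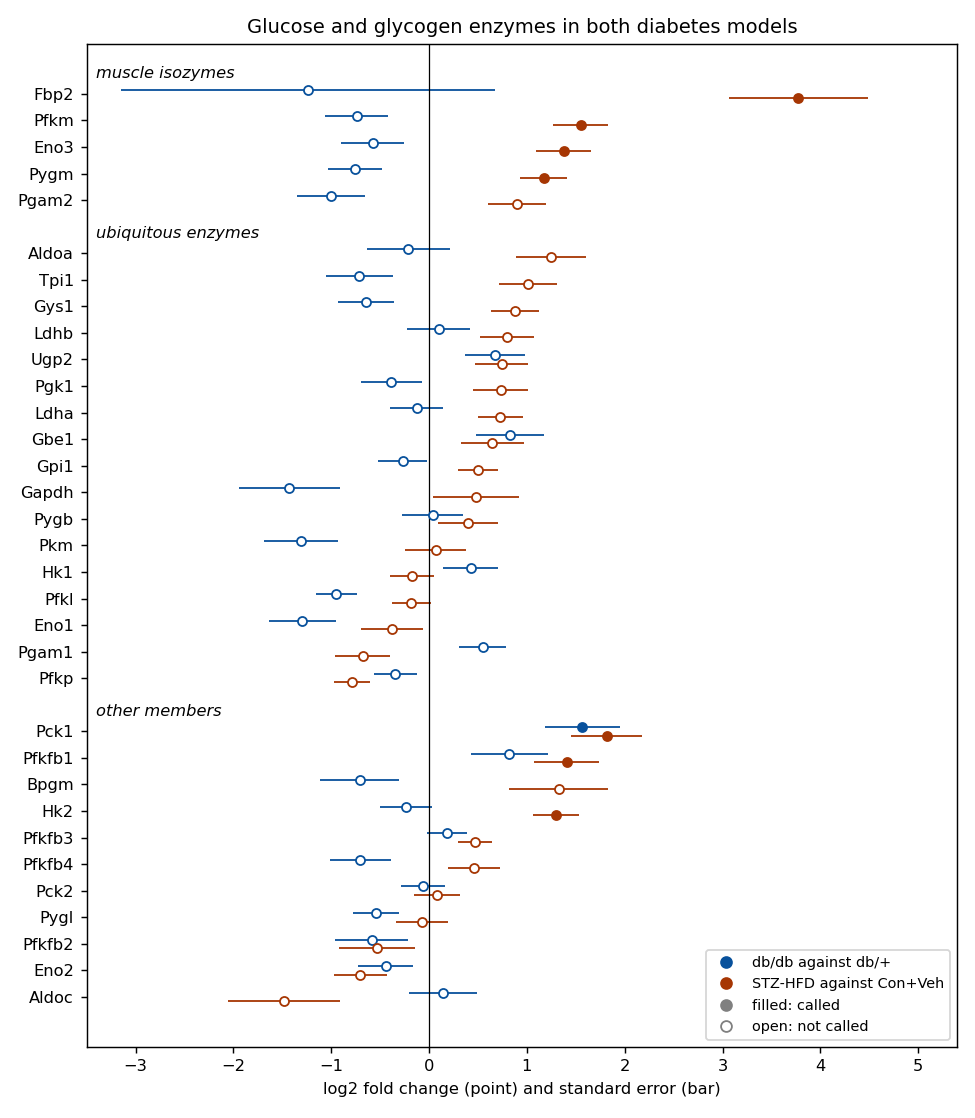
Log2 fold change (points) with its standard error (bars) of the 33 tested members in db/db against db/+ (blue, 3 mice a group) and STZ-HFD against Con+Veh (brown, 4 mice a group), grouped by class. Filled points are called: 7 members in STZ-HFD and 1 in db/db. The 5 muscle isozymes lie left of 0 in db/db and right of 0 in STZ-HFD. Among them *Fbp2* was tested only because of its values in STZ-HFD.

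Total counts ranged from 16076908 to 58943169 per library, at which 3 counts correspond to 0.0509 to 0.187 CPM. These floors cover counting error only, since the amplified cDNA carried no molecular identifiers. The library STZ-HFD 1 stood apart, with the lowest total, 42626 genes detected against 25194 to 29924 in the other 13 libraries, and a low weight in the fit (0.379). Con+Veh 1 had the lowest weight (0.275) and Con+Veh 3 the highest (3.05). Con+Veh 2 and STZ-HFD 4, whose library names share an ending, held 21.8% and 21.1% of their counts as mitochondrial ribosomal RNA against at most 12.9% elsewhere. *Lepr* counts did not separate the db groups (472, 374 and 391 in db/+, 309, 534 and 375 in db/db), and the counts do not show the mutation itself. Summed CPM of 7 cartilage and annulus markers was 13808 to 24447 in db/+, 6154 to 15267 in db/db, 1637 to 3802 in Con+Veh and 730.4 to 1493 in STZ-HFD, and 5 of the 6 tested were called lower in STZ-HFD. Of the nucleus pulposus markers, *Noto* and *Shh* were at 0 in some libraries, and 0 of the 4 tested were called in either model by limma (1 and 0 at an unadjusted p under 0.05). Skeletal muscle transcripts were abundant in every library, with a summed CPM of 9163 to 70207 over 20 markers. The part of these shifts in the values of the glucose enzymes was not tested beyond the fits given here. Fewer cells of a type and less RNA per cell cannot be told apart in such pooled tissue.

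Per kilobase of exon, the most abundant members in Con+Veh were *Gapdh* (415 CPM per kb), *Aldoa* (363), *Eno3* (105), *Pgam2* (88.7) and *Pygm* (79.9), followed by *Pkm* (52.9), *Gpi1* (50.8), *Ldha* (44.7), *Pfkm* (34.1) and *Tpi1* (29.97). In db/+ the same scale gave *Gapdh* 595, *Aldoa* 334, *Eno3* 80.3, *Pgam2* 61.9, *Pkm* 50.7 and *Pygm* 49.8. At the low end stood *Hk3*, *Fbp1* and *Fbp2*, at or below 0.31 CPM per kb in both control groups. On this scale muscle forms made up most of their enzyme's transcripts in every library: *Eno3* 87.3% to 99.3% of the 3 enolases, *Pfkm* 67.8% to 96.7% of the 3 phosphofructokinases, *Pygm* 80.4% to 97.9% of the 3 glycogen phosphorylases and *Pgam2* 69.1% to 98.9% of both phosphoglycerate mutases. The length is that of all annotated exons of a gene merged, 13401 bases for *Pfkp* and 3340 for *Pfkm*, and the shares depend on it. In plain CPM *Pfkp* exceeded *Pfkm* in db/+ 3 (69.8 against 61.1), db/db 2 (54.8 against 48.4) and db/db 3 (58.1 against 50.1). It lay below *Pfkm* in every other library. The *Pgam2* share is also uncertain for another reason. For *Pgam1*, the total of the transcript estimates was 6.45 per gene count, against a median of 0.276 over 13870 genes, so its gene counts are uncertain. Reads that fit both this gene and a near-identical copy elsewhere in the genome were not resolved here. *Gapdh*, *Eno1*, *Pgk1*, *Tpi1*, *Aldoa*, *Ldha* and *Pkm* have such copies too, and their levels are uncertain for the same reason. A second entry named *Aldoa*, beside the one used, held 3 to 67 counts per library.

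Of the 5 muscle isozymes, *Pfkm*, *Eno3*, *Pygm* and *Fbp2* rose in STZ-HFD, and none was called in db/db. *Pfkm* (ENSMUSG00000033065, chromosome 15 from 98092589 to 98132451 of GRCm38), the muscle subunit of the enzyme that commits glucose to glycolysis, was at 96.5, 108 and 61.1 CPM in db/+, 61.8, 48.4 and 50.1 in db/db, 119, 144, 80.0 and 112 in Con+Veh and 111, 285, 431 and 228 in STZ-HFD. All STZ-HFD libraries but STZ-HFD 1 exceeded every Con+Veh library, and STZ-HFD 1 lay inside the control range. The db groups met at 1 library each. Its log2 fold change was 1.55 ± 0.28 (SE, adjusted p = 0.0097) in STZ-HFD and -0.74 ± 0.32 (SE, adjusted p = 0.20) in db/db. *Eno3* (ENSMUSG00000060600, chromosome 11 from 70657202 to 70662513), the muscle enolase, was at 149, 175 and 94.1 CPM in db/+, 124, 78.8 and 84.0 in db/db, 115, 232, 163 and 223 in Con+Veh and 227, 409, 748 and 391 in STZ-HFD. STZ-HFD 1 again lay among the controls, and the other STZ-HFD libraries lay above them. The log2 fold change was 1.37 ± 0.28 (SE, adjusted p = 0.017) in STZ-HFD and -0.58 ± 0.32 (SE, adjusted p = 0.32) in db/db. *Pygm* (ENSMUSG00000032648, chromosome 19 from 6384399 to 6398459), the muscle glycogen phosphorylase, whose loss causes McArdle disease, was at 133, 214 and 134 CPM in db/+, 100.3, 111 and 75.9 in db/db, 248, 299, 224 and 257 in Con+Veh and 224, 593, 658 and 539 in STZ-HFD. In db/db every library lay below every db/+ library, and in STZ-HFD all but STZ-HFD 1 lay above every control. Its log2 fold change was 1.17 ± 0.24 (SE, adjusted p = 0.017) in STZ-HFD and -0.76 ± 0.27 (SE, adjusted p = 0.13) in db/db.

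*Pgam2* (ENSMUSG00000020475, chromosome 11 from 5801640 to 5803733), the muscle phosphoglycerate mutase, was at 48.6, 77.8 and 29.7 CPM in db/+, 39.9, 20.5 and 19.9 in db/db, 66.9, 71.8, 66.7 and 92.6 in Con+Veh and 61.2, 127, 165 and 150.2 in STZ-HFD. It showed the same arrangement, with STZ-HFD 1 the lowest of the 8 libraries of its cohort and the other STZ-HFD libraries above all controls. Neither change was called, at 0.90 ± 0.30 (SE, adjusted p = 0.11) in STZ-HFD and -1.002 ± 0.34 (SE, adjusted p = 0.12) in db/db. *Fbp2* (ENSMUSG00000021456, chromosome 13 from 62836877 to 62858422), the muscle fructose-1,6-bisphosphatase, was rare in all controls. It had 0, 10 and 3 counts in db/+, 2, 2 and 0 in db/db, 39, 5, 8 and 5 in Con+Veh and 152, 258, 153 and 101 in STZ-HFD. In CPM the STZ-HFD libraries stood at 6.25, 8.87, 4.75 and 3.00 and Con+Veh at 1.06, 0.104, 0.376 and 0.272, with no overlap and with STZ-HFD 1 on the high side. Before TMM scaling it exceeded 1 CPM in these 4 libraries and in no other, so it was tested only because of the group in which it was high, and its log2 fold change of 3.77 ± 0.71 (SE, adjusted p = 0.011) is a description. The db libraries were at or near the floor of 3 counts, so the fitted value of -1.24 ± 1.91 (SE, adjusted p = 0.75) rests on few reads.

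**Figure D2:**
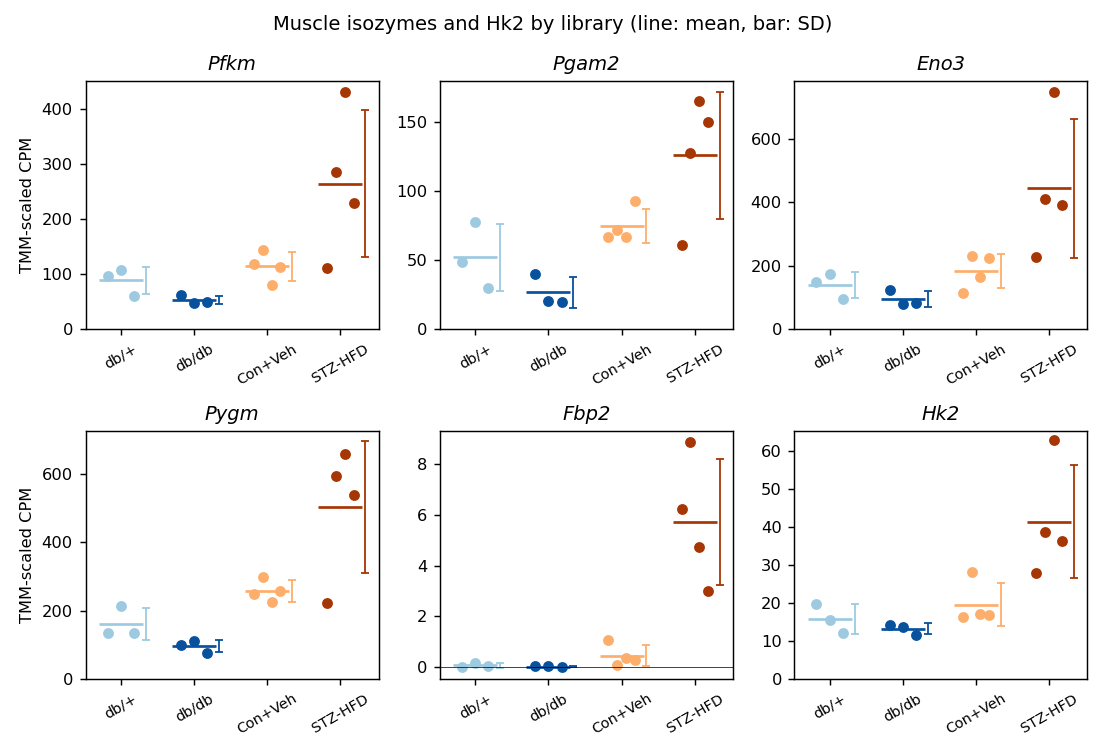
CPM (scaled by TMM factors, linear axes) of the 5 muscle isozymes and *Hk2* in each library of the 4 groups. Points are libraries (3 each in db/+ and db/db, 4 each in Con+Veh and STZ-HFD), horizontal lines group means and bars SDs. For *Pfkm*, *Pgam2*, *Eno3* and *Pygm* 1 STZ-HFD library, STZ-HFD 1, sits at the level of the controls (111 CPM for *Pfkm*).

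For 4 of the 5 the change in STZ-HFD differed from that in db/db, although no db/db change was called and *Pgam2* was called in neither model. The STZ-HFD minus db/db difference of the log2 fold changes was 2.29 ± 0.43 (SE, adjusted p = 0.02) for *Pfkm*, 1.95 ± 0.43 (SE, adjusted p = 0.033) for *Eno3*, 1.93 ± 0.36 (SE, adjusted p = 0.02) for *Pygm* and 1.90 ± 0.45 (SE, adjusted p = 0.043) for *Pgam2*. Without STZ-HFD 1 the STZ-HFD log2 fold changes were 1.75 (adjusted p = 0.0045) for *Pfkm*, 1.55 (adjusted p = 0.0079) for *Eno3*, 1.32 (adjusted p = 0.0058) for *Pygm* and 1.03 (adjusted p = 0.049) for *Pgam2*, which then passed both thresholds, and 11 members were called higher in all. Calls higher in STZ-HFD also grew over all genes without this library, to 311 of 16238 from 220 in the main fit. No member was called higher in STZ-HFD when Con+Veh 3, Con+Veh 4 or STZ-HFD 3 was left out, and 4 were called without STZ-HFD 4. Over all tested genes these fits called 3, 4, 3 and 64 higher in STZ-HFD, compared with 220 in the main fit. edgeR's quasi-likelihood test called 1 member higher in STZ-HFD, *Pck1*, DESeq2 called 5, and voom without library weights called 0. Of all tested genes they called 6, 122 and 3 higher in STZ-HFD. For the difference between the models these tests called 0, 4 and 0 members, and 0 were called without db/+ 2, db/db 3, Con+Veh 3 or STZ-HFD 3. Over all tested genes the tests called 0, 124 and 0 higher for the difference, and those fits 8, 38, 1 and 7. The difference was called for 2 members without db/+ 1, db/db 2 or Con+Veh 4, the pair in each case being *Pfkm* and *Pygm*, and for 3 without STZ-HFD 2. Those fits called 55, 81, 61 and 85 of all tested genes higher for the difference. Without both Con+Veh 2 and STZ-HFD 4, *Hk2*, *Pfkm*, *Fbp2* and *Pck1* were called higher in STZ-HFD. The 11, 5 and 4 members called higher in STZ-HFD in these fits each include *Fbp2*, whose difference was built in by the filter. So do the 4 that DESeq2 called for the difference.

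To show what lies upstream of the muscle isozymes, the promoter window (250 bases before to 50 after a RefSeq start, GRCm38.p6) whose start lies nearest the annotated gene start is printed for each, 5′ to 3′ on the gene's strand. Capitals mark CAGCTG, an E-box of the kind that muscle regulatory factors such as MyoD are known to bind.
Pfkm chr15:98092339-98092638, plus strand: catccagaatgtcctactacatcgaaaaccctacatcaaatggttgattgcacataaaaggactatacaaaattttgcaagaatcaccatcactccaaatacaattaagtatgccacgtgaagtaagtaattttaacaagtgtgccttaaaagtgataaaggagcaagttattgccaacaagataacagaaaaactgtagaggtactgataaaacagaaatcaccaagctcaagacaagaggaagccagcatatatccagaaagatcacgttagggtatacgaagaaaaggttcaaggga
Pgam2 chr11:5803747-5804046, minus strand: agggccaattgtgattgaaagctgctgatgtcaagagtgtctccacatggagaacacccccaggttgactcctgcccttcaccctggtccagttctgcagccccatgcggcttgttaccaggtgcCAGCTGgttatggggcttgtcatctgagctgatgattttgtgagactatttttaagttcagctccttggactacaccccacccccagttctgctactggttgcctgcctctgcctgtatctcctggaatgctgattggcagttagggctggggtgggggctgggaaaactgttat
Eno3 chr11:70656926-70657225, plus strand: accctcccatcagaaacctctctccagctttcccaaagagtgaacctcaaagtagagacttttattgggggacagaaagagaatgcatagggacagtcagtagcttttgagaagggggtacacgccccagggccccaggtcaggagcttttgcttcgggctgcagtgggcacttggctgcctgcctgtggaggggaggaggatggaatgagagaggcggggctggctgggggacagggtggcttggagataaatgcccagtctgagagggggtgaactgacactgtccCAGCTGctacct
Fbp2 chr13:62858351-62858650, minus strand: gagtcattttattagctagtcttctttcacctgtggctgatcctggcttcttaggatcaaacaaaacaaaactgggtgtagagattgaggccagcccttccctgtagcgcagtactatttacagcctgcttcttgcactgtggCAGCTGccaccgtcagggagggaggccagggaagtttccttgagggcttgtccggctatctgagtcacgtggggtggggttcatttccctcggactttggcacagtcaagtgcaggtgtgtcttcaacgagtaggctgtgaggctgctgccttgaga
Pygm chr19:6384158-6384457, plus strand: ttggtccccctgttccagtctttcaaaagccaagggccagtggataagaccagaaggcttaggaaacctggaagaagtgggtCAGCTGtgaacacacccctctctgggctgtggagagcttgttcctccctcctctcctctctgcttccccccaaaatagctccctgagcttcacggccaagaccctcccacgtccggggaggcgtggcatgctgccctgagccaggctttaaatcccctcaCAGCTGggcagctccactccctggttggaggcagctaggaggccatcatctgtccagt
CAGCTG, which reads the same on both strands, was present in 4 of these 5 windows, in 3 of the 17 ubiquitous members' windows and in 2 of the 13 others. It occurred in 16.3% of all 32817 windows of 300 bases. The *Pfkm* window is that of its most upstream start, and 3 further windows are listed for this gene. For the MEF2 site, 1 fixed pattern was searched, which also reads the same on both strands. It was in 0 of the 5 muscle windows and 3.69% of all windows. This pattern required a G as its last base and so misses forms of the site that end in A. The *Pgam2* window printed above holds ctatttttaa, which departs from the pattern only in its last base, A. The other windows were not searched for forms that end in A. ACGTG and GCGTG, the cores of the hypoxia response element, searched on both strands, were in 3 and 2 of the 5 muscle windows, in 6 and 9 of the 17 ubiquitous ones and in 19.6% and 32.4% of all windows, and CACGTG holds ACGTG on both strands. A match describes letters in a window and is not a site of binding.

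Skeletal muscle markers that are no enzymes of this group lay on the same side of 0 as the muscle isozymes in both models. The 20 markers, which include *Acta1*, *Ckm*, *Myh4* and *Ttn*, were all tested, and none was at 0 in any library. All 20 lay below 0 in db/db (median log2 fold change -0.83, 0 called by limma and edgeR's test, 1 by DESeq2, and 11 at an unadjusted p under 0.05 in limma) and above 0 in STZ-HFD (median 1.08, 8 called by limma, 0 by edgeR's test and 4 by DESeq2), and 10 were called for the difference between the models by limma, 0 by edgeR's test and 8 by DESeq2. Without STZ-HFD 1 these counts by limma were 2 lower in db/db, 14 higher in STZ-HFD and 17 for the difference. That fit called 76, 311 and 274 of all tested genes in these directions, compared with 73, 220 and 161 in the main fit. Without Con+Veh 3, Con+Veh 4 or STZ-HFD 3, only 3, 4 and 3 of all tested genes were called higher in STZ-HFD. Over all tested genes edgeR's test called 0 lower in db/db, 6 higher in STZ-HFD and 0 higher for the difference, and DESeq2 53, 122 and 124. The summed CPM of the 20 markers was 20342 to 25000.4 in db/+, 9163 to 18703 in db/db, 21290.1 to 47561 in Con+Veh and 25931 to 70207 in STZ-HFD, where STZ-HFD 1 was the lowest library. The mean log2 CPM of the markers was 8.44 in STZ-HFD 1, 9.57 to 9.78 in the other STZ-HFD libraries and 8.26 to 8.66 in Con+Veh.

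With this mean as a covariate in the fit, the median log2 fold change of the 5 muscle isozymes was 0.52 in STZ-HFD and 0.055 in db/db, and that of the ubiquitous enzymes was -0.058 and -0.030. The STZ-HFD values became 0.52 (adjusted p = 0.40) for *Pfkm*, 0.33 (adjusted p = 0.61) for *Eno3*, 0.54 (adjusted p = 0.37) for *Pygm* and -0.47 (adjusted p = 0.33) for *Pgam2*. *Fbp2* kept a value of 3.84 (adjusted p = 0.079), and *Pck1* remained called at 2.31 (adjusted p = 0.043), 1 member in all. No member was called in db/db or for the difference between the models in this fit (4 and 2 of 33 at an unadjusted p under 0.05). Of all genes tested, 17 were called higher and 78 lower in STZ-HFD with the covariate, compared with 220 and 221 without it. In db/db these counts were 211 and 50 with it and 208 and 73 without it. For the difference they were 7 and 34 with it and 161 and 138 without it.

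**Figure D3:**
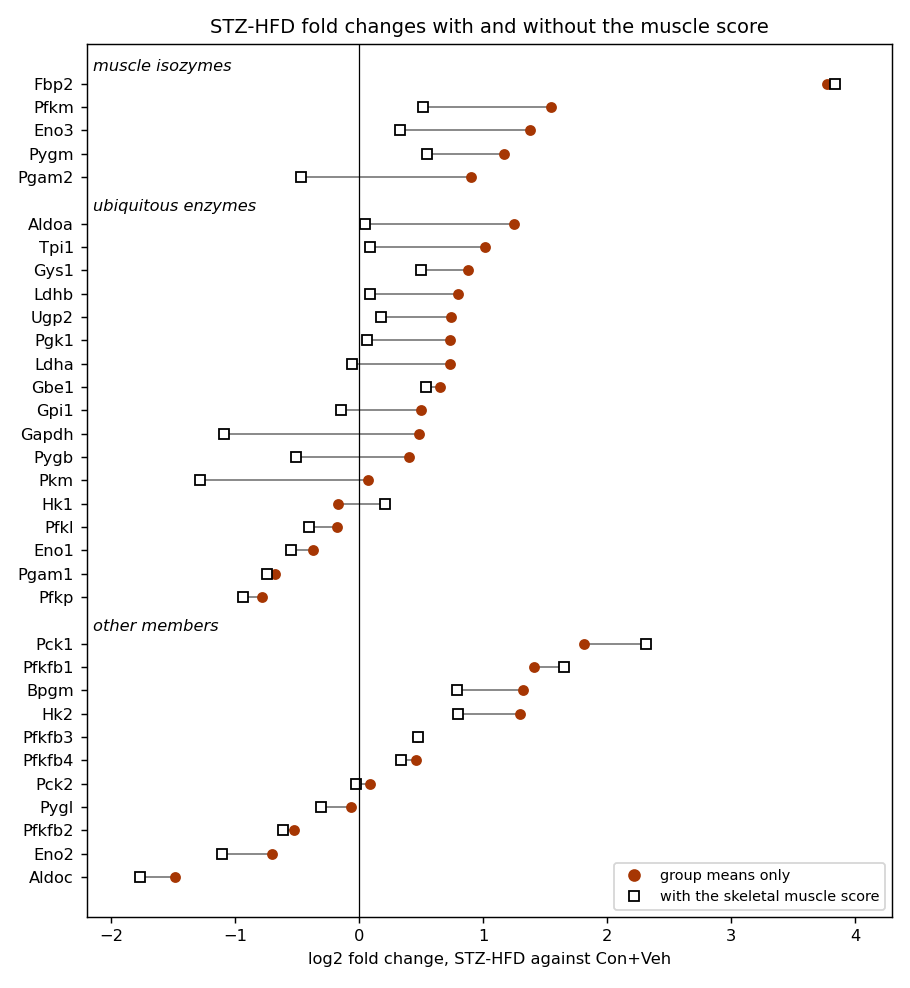
Log2 fold change of each tested member in STZ-HFD against Con+Veh (4 mice a group) from the fit of group means (filled circles) and from the fit with the mean log2 CPM of 20 skeletal muscle markers as a covariate (open squares), grouped by class. The values of *Pfkm*, *Eno3*, *Pygm* and *Pgam2* move toward or past 0, while those of *Fbp2* and *Pck1* stay at 3.84 and 2.31. *Fbp2* was tested only because of its values in STZ-HFD and was not called in the fit with the covariate.

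Comparing isozymes of the same enzyme within a library removes the scaling of the library. Of 9 pairs, 5 had a higher log2 ratio of CPM in every STZ-HFD library than in every Con+Veh library, and none separated db/db from db/+. The pairs with *Pfkl* and *Pfkp* share *Pfkm*, so they are not separate observations. How often other gene pairs separate the groups was not computed. *Pfkm* over *Pfkl*, the liver-type subunit, was 3.07, 3.09, 2.33 and 2.90 in Con+Veh and 3.42, 4.19, 4.84 and 4.16 in STZ-HFD, a difference of the means of 1.30 (exact permutation p = 0.029, adjusted p = 0.10). *Pfkm* over *Pfkp*, the platelet-type subunit, was 1.51, 1.69, 0.75 and 0.78 and 2.06, 3.41, 3.92 and 2.704, which differed by 1.84 (exact permutation p = 0.029, adjusted p = 0.10). *Eno3* over *Eno1* was 2.87, 3.08, 2.78 and 3.57 and 3.86, 4.93, 5.90 and 3.94, a difference of 1.58 (exact permutation p = 0.029, adjusted p = 0.10). In all 3 pairs the library STZ-HFD 1 was the lowest of its group yet above every control. *Pgam2* over *Pgam1* differed by 1.36 (exact permutation p = 0.029, adjusted p = 0.10), with group means of 4.60 ± 0.67 against 3.24 ± 0.43, and *Hk2* over *Hk1* by 1.04 (exact permutation p = 0.029, adjusted p = 0.10), with -0.72 ± 0.47 against -1.75 ± 0.49. No ratio passed adjustment over the 18 tests, and 0.029 and 0.10 are the smallest two-sided p that 4 against 4 and 3 against 3 mice can give.

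The other 4 pairs overlapped in STZ-HFD. *Pygm* over *Pygb*, the brain form, differed by 0.37 (exact permutation p = 0.29, adjusted p = 0.45), and *Pygm* over *Pygl*, the liver form, by 0.66 (exact permutation p = 0.37, adjusted p = 0.51), and neither separated the groups. *Ldha* over *Ldhb*, the forms that favour lactate and pyruvate production, differed by -0.43 (exact permutation p = 0.23, adjusted p = 0.45). *Fbp2* over *Fbp1* differed by 2.35 (exact permutation p = 0.20, adjusted p = 0.45) and rests on few counts of *Fbp1*. In db/db the widest shift was that of *Pgam2* over *Pgam1*, -1.48 (exact permutation p = 0.20, adjusted p = 0.45), and *Eno3* over *Eno1* moved by 0.72 (exact permutation p = 0.20, adjusted p = 0.45). The other db/db differences ran from -0.81 to 0.80. Summed transcript estimates, usable for the pairs of phosphofructokinase and phosphoglycerate mutase, kept the separation of both *Pfkm* pairs in STZ-HFD (1.48 and 1.63), while the *Pgam2* pair then overlapped (0.77) and separated db/db from db/+ (-2.11).

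**Figure D4:**
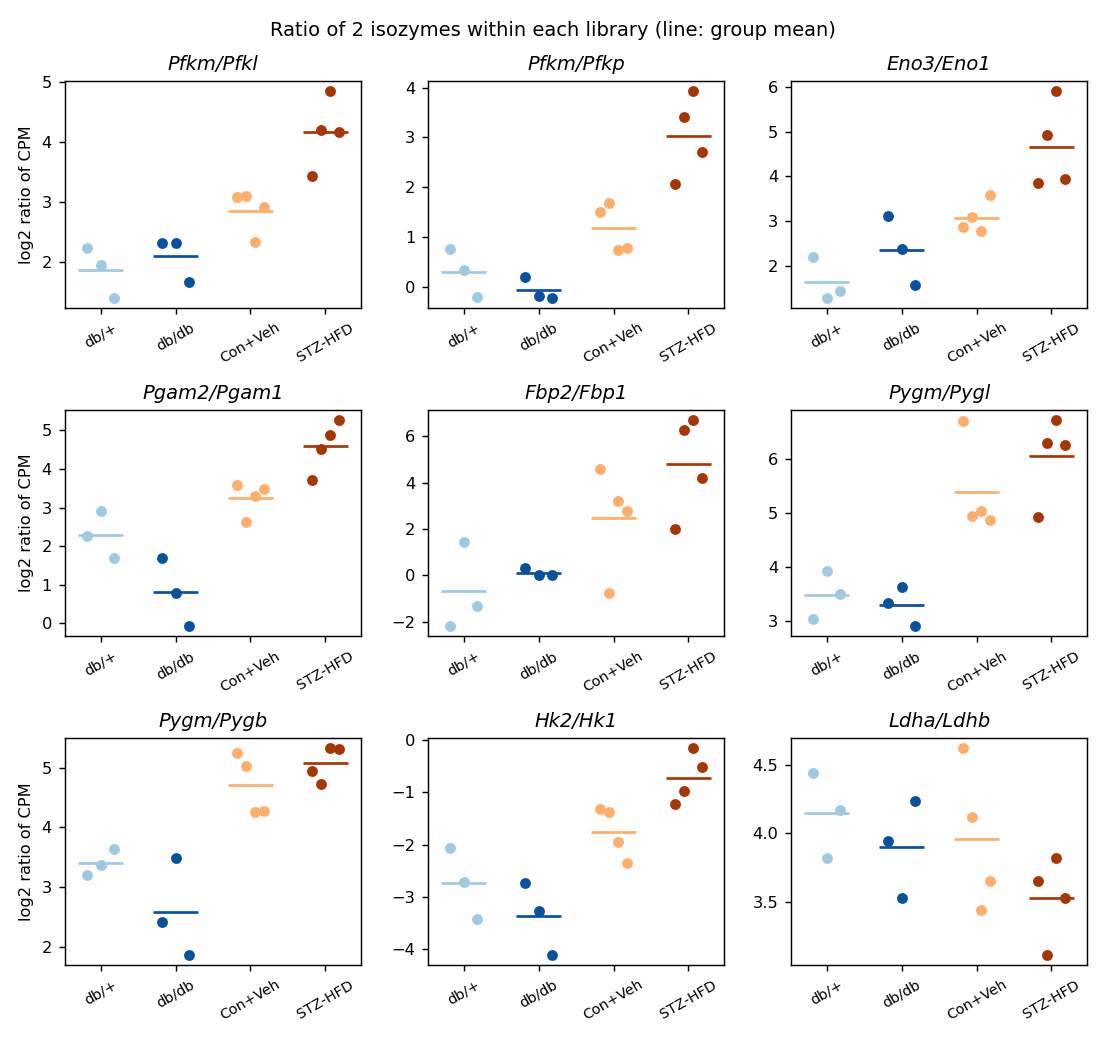
Log2 ratio of the CPM of 2 isozymes in each library (points) with the group mean (lines) for 9 pairs and 4 groups. In 5 pairs, Pfkm/Pfkl, Pfkm/Pfkp, Eno3/Eno1, Pgam2/Pgam1 and Hk2/Hk1, the 4 STZ-HFD libraries lie above the 4 Con+Veh libraries. The vertical scales differ between panels.

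Hexokinases trap glucose in the cell. *Hk2* (ENSMUSG00000000628, chromosome 6 from 82725025 to 82774454), the insulin-regulated form of muscle and fat, was at 19.8, 15.5 and 12.0 CPM in db/+, 14.3, 13.8 and 11.7 in db/db, 16.2, 28.1, 17.2 and 16.8 in Con+Veh and 28.0, 38.6, 62.8 and 36.4 in STZ-HFD. The highest control, Con+Veh 2, and the lowest STZ-HFD library, STZ-HFD 1, were level, so the groups touched. *Hk2* rose in STZ-HFD by 1.29 ± 0.24 (SE, adjusted p = 0.0097) on the log2 scale and stood at -0.24 ± 0.27 (SE, adjusted p = 0.64) in db/db, and its response differed between the models by 1.54 ± 0.35 (SE, adjusted p = 0.039). *Hk1*, the form of most tissues and the most abundant of them here, was at 83.6, 102 and 129.95 CPM in db/+, 95.7, 132 and 201 in db/db, 40.6, 73.1, 66.8 and 86.2 in Con+Veh and 65.0, 76.2, 70.1 and 52.1 in STZ-HFD. Its groups overlapped in both cohorts, at -0.17 ± 0.22 (SE, adjusted p = 0.74) in STZ-HFD and 0.43 ± 0.28 (SE, adjusted p = 0.39) in db/db. *Hk2* made up 30.02% ± 7.13 (SD, n = 4) of hexokinase transcripts per length in Con+Veh and 46.2% ± 8.31 (n = 4) in STZ-HFD. These shares depend on the merged exon lengths, 5969 bases for *Hk2* and 8532 for *Hk1*. *Hk3*, the form of white blood cells, had at most 1.19 CPM in any library, that of STZ-HFD 1.

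The Pfkfb enzymes make and remove fructose-2,6-bisphosphate, the activator of phosphofructokinase. *Pfkfb1* (ENSMUSG00000025271, chromosome X from 150588229 to 150643878), the form of liver and muscle, was at 0.821, 1.41 and 2.27 CPM in db/+, 2.96, 2.81 and 1.84 in db/db, 4.46, 5.19, 2.49 and 2.28 in Con+Veh and 7.56, 5.78, 6.83 and 9.25 in STZ-HFD. Every STZ-HFD library exceeded every Con+Veh library, at low counts. It rose in STZ-HFD by 1.41 ± 0.33 (SE, adjusted p = 0.029) on the log2 scale, and its db/db value was 0.82 ± 0.39 (SE, adjusted p = 0.24). *Pfkfb3*, the inducible form and the most abundant of the 4, at 63.2 ± 13.4 CPM (SD, n = 4) in Con+Veh and 76.3 ± 15.4 (n = 4) in STZ-HFD, was not called, at 0.47 ± 0.17 (SE, adjusted p = 0.15). *Pfkfb2* and *Pfkfb4* were not called in either model. With the muscle score in the fit, *Hk2* stood at 0.80 (adjusted p = 0.23) and *Pfkfb1* at 1.65 (adjusted p = 0.12) in STZ-HFD.

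Of the 17 ubiquitous enzymes, 11 lay below and 6 above 0 in db/db, and none passed both thresholds. Those above 0 included *Pgam1* (0.55), *Hk1* (0.43) and *Ldhb* (0.10). *Pfkl* was at 20.7, 27.9 and 23.1 CPM in db/+ and 12.5, 9.69 and 15.9 in db/db, without overlap. Its log2 fold change, -0.95 ± 0.21 (SE, adjusted p = 0.033), passed the test, as for 0.508% of all tested genes in this direction, but fell short of the fold minimum. It was -0.91 (adjusted p = 0.076) with the muscle score, -0.79 (adjusted p = 0.41) with the adipocyte score and -0.58 (adjusted p = 0.19) after a trend with GC content was removed, and so did not pass the test in these fits. *Eno1*, the enolase of most tissues, was at 32.7, 71.9 and 35.02 CPM in db/+ and 14.3, 15.1 and 28.2 in db/db, also without overlap, with -1.30 ± 0.34 (SE, adjusted p = 0.056), or -0.87 (adjusted p = 0.26) without the GC trend. *Pkm*, the pyruvate kinase of most tissues and muscle, was at 305, 319.6 and 137 CPM in db/+ and 143, 63.8 and 109.6 in db/db. The db/+ library 3 lay within the db/db range, and the change was -1.31 ± 0.38 (SE, adjusted p = 0.073). *Gapdh*, often used as a reference gene, was at 1528, 4723 and 1131 CPM in db/+ and 976, 556 and 945 in db/db, every db/db library below every db/+ library and db/+ 2 far above the rest, with -1.43 ± 0.52 (SE, adjusted p = 0.13). With the muscle score in the fit *Pkm* stood at -0.34 (adjusted p = 0.58) and *Gapdh* at -0.31 (adjusted p = 0.77) in db/db. *Tpi1*, *Pgk1*, *Gpi1* and *Aldoa* stood at -0.71, -0.39, -0.27 and -0.21, none called. Without db/db 3, or without STZ-HFD 3 or STZ-HFD 4, 1 member was called lower in db/db, *Pfkl* in the first case and *Eno1* in the others.

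In STZ-HFD, 12 of the 17 ubiquitous enzymes lay above 0 and none was called by limma, edgeR's test or DESeq2 (10 at an unadjusted p under 0.05 in limma). *Aldoa*, the aldolase of muscle and most tissues, was at 651, 1740.2, 856 and 974 CPM in Con+Veh and 761, 1147, 2998 and 2898 in STZ-HFD. The groups overlapped, and its value of 1.25 ± 0.36 (SE, adjusted p = 0.065) was not called. *Tpi1*, triosephosphate isomerase, stood at 1.01 ± 0.29 (SE, adjusted p = 0.068), *Pgk1* at 0.73 ± 0.28 (SE, adjusted p = 0.17) and *Gpi1* at 0.50 ± 0.21 (SE, adjusted p = 0.20). *Gapdh* was at 1002, 1876, 1851 and 2127 CPM in Con+Veh and 523, 2199.8, 2498 and 4621 in STZ-HFD, with the lowest and the highest library both in STZ-HFD, and stood at 0.48 ± 0.43 (SE, adjusted p = 0.62). *Pkm* was at 375, 175, 215 and 293 CPM in Con+Veh and 119.7, 389.6, 313 and 202 in STZ-HFD, likewise, and stood at 0.068 ± 0.31 (SE, adjusted p = 0.94). With the muscle score both went below 0, to -1.10 (adjusted p = 0.29) for *Gapdh* and -1.29 (adjusted p = 0.07) for *Pkm*. *Pfkp* was at 41.7, 44.8, 47.7 and 65.2 CPM in Con+Veh and 26.5, 26.8, 28.3 and 34.99 in STZ-HFD, without overlap, and in the db cohort at 57.1, 85.5 and 69.8 CPM in db/+ and 53.6, 54.8 and 58.1 in db/db. Its STZ-HFD value of -0.79 ± 0.19 (SE, adjusted p = 0.029) passed the test, as for 1.8% of all tested genes in this direction, and fell short of the fold minimum, and it no longer passed with the muscle score (-0.94, adjusted p = 0.12) or the adipocyte score (-0.69, adjusted p = 0.50). *Pgam1* was at 5.57, 11.7, 6.77 and 8.26 CPM in Con+Veh and 4.65, 5.47, 5.53 and 3.84 in STZ-HFD without overlap. In the db cohort it was at 10.2, 10.3 and 9.20 CPM in db/+ and 12.3, 11.8 and 20.96 in db/db, without overlap in the other direction. Neither change was called, at -0.68 ± 0.29 (SE, adjusted p = 0.21) in STZ-HFD and 0.55 ± 0.24 (SE, adjusted p = 0.20) in db/db. Its difference between the models was -1.23 ± 0.37 (SE, adjusted p = 0.097). *Pfkl* and *Eno1* stood at -0.18 and -0.38 in STZ-HFD.

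**Figure D5:**
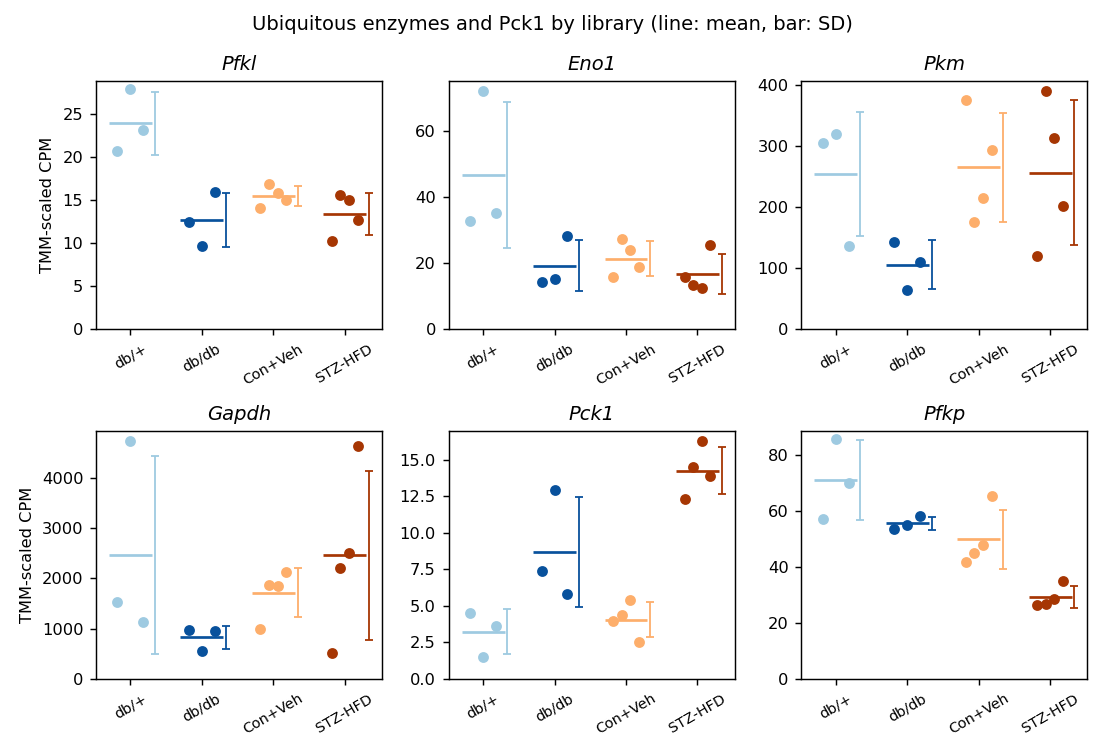
CPM (scaled by TMM factors, linear axes from 0) of *Pfkl*, *Eno1*, *Pkm*, *Gapdh*, *Pck1* and *Pfkp* in each library of the 4 groups, with group means (lines) and SDs (bars). The db/db libraries lie below all db/+ libraries for *Pfkl*, *Eno1* and *Gapdh*. *Pck1* lies above the controls in both models, and *Pfkp* lies below them in STZ-HFD.

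Lactate dehydrogenase turns pyruvate into lactate and back. *Ldha* was at 95.5, 148 and 74.1 CPM in db/+, 115, 70.3 and 111 in db/db, 123, 190.4, 127 and 152 in Con+Veh and 172, 195, 269 and 227 in STZ-HFD. Its groups overlapped in both cohorts. *Ldhb* was at 4.35, 10.5 and 4.07 CPM in db/+, 7.43, 6.07 and 5.86 in db/db, 4.94, 10.9, 11.6 and 12.1 in Con+Veh and 13.7, 22.6, 19.0 and 19.6 in STZ-HFD. *Ldhb* was higher in every STZ-HFD library than in every control, but neither gene was called, at 0.79 ± 0.28 (SE, adjusted p = 0.12) for *Ldhb* and 0.73 ± 0.23 (SE, adjusted p = 0.093) for *Ldha*. *Bpgm*, which makes 2,3-bisphosphoglycerate in red cells, stood at 1.32 ± 0.50 (SE, adjusted p = 0.16) in STZ-HFD and -0.71 ± 0.41 (SE, adjusted p = 0.33) in db/db, and the 5 tested erythroid markers had a median log2 fold change of -0.012 in STZ-HFD and 0.044 in db/db. The neural forms had STZ-HFD values below 0 without a call, *Aldoc* at -1.48 ± 0.57 (SE, adjusted p = 0.17) and *Eno2* at -0.70 ± 0.27 (SE, adjusted p = 0.18).

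*Pck1* (ENSMUSG00000027513, chromosome 2 from 173153048 to 173159273), the cytosolic phosphoenolpyruvate carboxykinase, rose in both models. It starts gluconeogenesis in liver and kidney and supplies glycerol for fat storage in adipocytes. It was at 4.49, 1.53 and 3.65 CPM in db/+, 7.38, 12.9 and 5.78 in db/db, 3.94, 4.36, 5.405 and 2.50 in Con+Veh and 12.3, 14.5, 16.2 and 13.9 in STZ-HFD. No library of either model overlapped its control, as for 14.1% of all tested genes in the higher direction in the db cohort and 1.97% in the other. The log2 fold change was 1.57 ± 0.38 (SE, adjusted p = 0.043) in db/db and 1.82 ± 0.36 (SE, adjusted p = 0.015) in STZ-HFD, and the difference between them was 0.25 ± 0.53 (SE, adjusted p = 0.86). Its mitochondrial counterpart *Pck2* stood at -0.061 ± 0.23 (SE, adjusted p = 0.91) and 0.083 ± 0.23 (SE, adjusted p = 0.89). The db/db call of *Pck1* was kept in 5 of the 14 fits that left out 1 library and was lost without any of the 6 libraries of its cohort, Con+Veh 1, STZ-HFD 1 or STZ-HFD 4, with log2 fold changes of 1.03 to 1.81. Over all tested genes, the fits without 1 library of the db cohort called 12 to 96 higher in db/db, compared with 208 in the main fit. Under edgeR's quasi-likelihood test, which called 0 of all tested genes in db/db (1891 at an unadjusted p under 0.05), *Pck1* stood at 1.43 (adjusted p = 0.22), and DESeq2 called it. In STZ-HFD that test gave 1.81 (adjusted p = 0.048). The limma call in STZ-HFD was lost without Con+Veh 3, Con+Veh 4 or STZ-HFD 3, where 3, 4 and 3 of all tested genes were called higher.

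Of 8 adipocyte markers, 7 lay above 0 in db/db and 8 in STZ-HFD. *Cfd*, the most abundant, was the one below 0, at -0.60 (adjusted p = 0.35) in db/db. Their summed CPM was 229 to 478 in db/+, 355 to 639 in db/db, 434 to 949.5 in Con+Veh and 969.97 to 1107 in STZ-HFD, with none at 0 in any library. Their median log2 fold change was 1.34 in db/db, with 3 of 8 called higher, and 0.70 in STZ-HFD, with 1 called (0 in both by edgeR's test, 3 and 2 by DESeq2). With their mean log2 CPM as a covariate *Pck1* stood at 0.77 (adjusted p = 0.63) in db/db and 1.31 (adjusted p = 0.48) in STZ-HFD, and 0 members were called in either model by limma in this fit (at an unadjusted p under 0.05, 6 and 11 of 33 members). The STZ-HFD values of the other members called without it were 1.55 (adjusted p = 0.23) for *Pfkm*, 1.22 (adjusted p = 0.40) for *Eno3*, 1.11 (adjusted p = 0.36) for *Pygm*, 4.83 (adjusted p = 0.16) for *Fbp2*, 1.76 (adjusted p = 0.29) for *Pfkfb1* and 1.09 (adjusted p = 0.36) for *Hk2*. All 6 lay above the fold minimum without passing the test. Of all genes tested, the fit with this covariate called 0 in db/db, and 1 higher and 2 lower in STZ-HFD (1860 and 1638 at an unadjusted p under 0.05).

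*Fbp2* was the other gluconeogenic enzyme called higher in STZ-HFD, within the limit of the filter given above. Its liver counterpart *Fbp1* had 8, 2 and 12 counts in db/+, 1, 2 and 0 in db/db, 0, 10, 0 and 0 in Con+Veh and 37, 2, 0 and 4 in STZ-HFD, and the highest count was again that of STZ-HFD 1. Without this library *Fbp2* stood at 3.76 (adjusted p = 0.01). Of the enzymes that free glucose in liver, *G6pc* did not pass the filter on low counts, and *G6pc3*, the form of most tissues, stood at -0.27 (adjusted p = 0.63) in STZ-HFD and -0.15 (adjusted p = 0.75) in db/db. *Pcx*, pyruvate carboxylase, stood at -0.091 (adjusted p = 0.87) and -0.50 (adjusted p = 0.22).

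Of the 6 glycogen enzymes among the members, *Pygm* rose in STZ-HFD and the other 5 were not called in either model. *Gys1* (ENSMUSG00000003865, chromosome 7 from 45434844 to 45456619), the muscle-type glycogen synthase that most tissues use, was at 78.4, 121 and 94.8 CPM in db/+, 54.8, 66.0 and 66.4 in db/db, 94.8, 127, 83.3 and 98.0 in Con+Veh and 70.1, 112, 218 and 194 in STZ-HFD. Every db/db library was below every db/+ library, and in the other cohort 2 STZ-HFD libraries were above all controls. Neither change was called, at -0.65 ± 0.29 (SE, adjusted p = 0.20) in db/db and 0.88 ± 0.24 (SE, adjusted p = 0.055) in STZ-HFD. The difference between the models was called, at 1.53 ± 0.37 (SE, adjusted p = 0.047). *Pygl* was at 16.3, 14.1 and 11.7 CPM in db/+, 9.88, 8.91 and 10.1 in db/db, 2.36, 9.77, 6.81 and 8.75 in Con+Veh and 7.36, 7.57, 6.21 and 7.02 in STZ-HFD. *Pygb* was at 14.5, 20.7 and 10.6 CPM in db/+, 18.6, 9.91 and 20.7 in db/db, 6.49, 9.14, 11.7 and 13.2 in Con+Veh and 7.24, 22.4, 16.4 and 13.5 in STZ-HFD. *Pygl* lay lower in every db/db library than in db/+, uncalled at -0.54 ± 0.24 (SE, adjusted p = 0.20), and the other values of this pair overlapped. *Ugp2*, which makes the UDP-glucose that glycogen is built from, stood at 0.67 ± 0.31 (SE, adjusted p = 0.22) in db/db, without overlap, and 0.74 ± 0.27 (SE, adjusted p = 0.14) in STZ-HFD. *Gbe1*, the branching enzyme, was at 9.58, 10.2 and 10.9 CPM in db/+ and 17.5, 20.1 and 16.8 in db/db without overlap. Its value was 0.83 ± 0.35 (SE, adjusted p = 0.19) in db/db and 0.65 ± 0.32 (SE, adjusted p = 0.30) in STZ-HFD. Over all members, 4 were without overlap on the higher side and 7 on the lower side in db/db, where 14.1% and 11.7% of all tested genes were, and 4 and 2 in STZ-HFD, where 1.97% and 2.77% were. The 4 on the higher side in STZ-HFD were *Pfkfb1*, *Ldhb*, *Pck1* and *Fbp2*. Of these, *Fbp2* passed the filter on low counts only through that group, so its separation gives no support.

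Further genes of glycogen metabolism, 22 on a list without the members, gave 19 that were tested. In STZ-HFD 6 of them rose and none fell, while in db/db none was called by limma, edgeR's test or DESeq2 (2 at an unadjusted p under 0.05 in limma). edgeR's test and DESeq2, which called 6 and 122 of all tested genes higher in STZ-HFD, called none of the 19 there either, with 7 at an unadjusted p under 0.05 in each. Among those that rose were *Pgm1* at 1.41 (adjusted p = 0.025), which links glucose 1-phosphate to glycolysis, the phosphorylase kinase subunits *Phka1* at 1.19 (adjusted p = 0.017), *Phkb* at 1.22 (adjusted p = 0.022) and *Phkg1* at 1.13 (adjusted p = 0.032), and *Ppp1r3a*, the muscle glycogen-targeting subunit of protein phosphatase, at 1.38 (adjusted p = 0.017). *Phka1*, *Phkg1* and *Ppp1r3a* are known as the skeletal muscle forms. Their counterparts *Phka2* and *Phkg2*, which liver uses, stood at -0.67 (adjusted p = 0.08) and 0.075 (adjusted p = 0.94). *Phkg1* alone on this list was called for the difference between the models, 1.67 (adjusted p = 0.045). Of 18 further genes of glycolysis and gluconeogenesis, 10 were tested. *Tigar*, which lowers fructose-2,6-bisphosphate, rose in STZ-HFD, at 1.20 (adjusted p = 0.03), though not by edgeR's test or DESeq2, and 0 of the 10 were called by any of these tests in db/db or for the difference (5 and 5 at an unadjusted p under 0.05 in limma).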

How the data were processed

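RNA of 5 pooled tail discs per mouse was amplified to cDNA and sequenced in 14 libraries (3 db/+, 3 db/db, 4 Con+Veh, 4 STZ-HFD). Per the labels, reads were aligned with STAR to GRCm38. The authors deposited raw counts per gene from featureCounts against Ensembl genes, and the strand setting is not given in the sources used here. They also deposited estimated counts per transcript from Salmon, which were rounded, summed per gene and used as an alternative. Of 55774 lines, 287 exact repeats were dropped.

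Genes above 1 CPM in at least 3 libraries (16915) were scaled by TMM (edgeR 4.0.16) and fitted together with limma 3.58.1 (voomWithQualityWeights, 1 mean per group). The study's methods name edgeR, a filter on low expression and voomWithQualityWeights. The filter's value, TMM and the joint fit were chosen here. Contrasts were db/db minus db/+, STZ-HFD minus Con+Veh, and their difference. Isozyme ratios used log2 CPM with a prior count of 2 and the exact two-sided permutation test. Alternatives used edgeR's quasi-likelihood test, DESeq2 1.42.0, other filters and scalings, marker scores as covariates and fits without 1 library. The scripts were tested on simulated data. Promoter windows are RefSeq's, for GRCm38.p6. Gene positions are from GENCODE M21.

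The members and lists were chosen with earlier results of these data known. All members were named, with values in every library for those called, for the muscle isozymes and for their partners, and with fold changes for the 12 of the rest with the smallest p. *Pck2*, *Pfkfb2*, *Pfkfb4*, *G6pc3*, *Pcx*, *Phka2* and *Phkg2* were named after their values were seen. A result for 1 further gene is not reported here. The replicates are separate mice. Those sharing a number across groups were not paired: the correlations of their deviations from the group means were -0.28 to 0.19 in the db cohort and -0.26 to -0.04 in the other.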

Additional observations from a re-analysis of the deposited data

Results flagged for a closer look

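For 6 members the response differed between the models in the direct test (STZ-HFD change minus db/db change on the log2 scale): *Pfkm* by 2.29, *Eno3* by 1.95, *Pygm* by 1.93, *Pgam2* by 1.90, *Hk2* by 1.54 and *Gys1* by 1.53. Each lay above 0 in STZ-HFD and below 0 in db/db, and the 20 skeletal muscle markers lay on the same sides of 0 in both comparisons. Over all tested genes, 0.952% were called higher for the difference. Under edgeR's test, voom without library weights and the fit with the muscle score, 0 members were called for it. There 0, 0 and 7 of all tested genes were called higher.

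In 66 groups of 4 libraries, 3 values stood far from the other 3 by Dixon's criterion, which chance gives in about 1 group in 20. They were *Hk2* in Con+Veh 2 at 28.1 CPM, *Pfkfb3* in Con+Veh 2 at 83.2 CPM and *Ldhb* in Con+Veh 1 at 4.94 CPM. Con+Veh 2 held 21.8% of its counts as mitochondrial ribosomal RNA, and Con+Veh 1 had the lowest weight in the fit.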

How the results depend on the processing

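Of the alternative values for 27 member results followed over the settings, 542 kept their direction and side of the threshold, 172 lost the call, 16 gained one and 5 reversed. With the skeletal muscle score as a covariate, *Pgam2* reversed in STZ-HFD (-0.47), in db/db (0.089) and in the difference (-0.56), *Pfkm* (0.055) and *Eno3* (0.24) reversed in db/db, the median of the muscle isozymes went to 0.055 in db/db and 0.52 in STZ-HFD, and that of the ubiquitous enzymes in STZ-HFD to -0.058. Over all 33 tested members this covariate changed the sign for 8 in db/db, 8 in STZ-HFD and 11 in the difference. With the adipocyte score the muscle isozymes' median in STZ-HFD was 1.22. The count of members called higher in db/db, 1, went to 0 under edgeR's test, voom without weights, transcript totals, the muscle score, the adipocyte score and each model fitted alone. Over all tested genes, calls higher in db/db went from 208 to 0, 7, 115, 211, 0 and 357 in those fits, in the order given. The count called lower there, 0, went to 1 without Con+Veh 2 and STZ-HFD 4 (*Eno1*) and to 1 with no fold minimum (*Pfkl*). The count called higher in STZ-HFD, 7, went to 1 under edgeR's test, 0 without weights, 2 of 14 with transcript totals, 1 with the muscle score, 0 with the adipocyte score and 4 without Con+Veh 2 and STZ-HFD 4, and the count called lower, 0, went to 1 with no fold minimum (*Pfkp*). Over all tested genes, calls higher in STZ-HFD went from 220 to 6, 3, 30, 17, 1 and 68 in those fits, in the order given. *Fbp2*, which passed the main filter only through STZ-HFD and so gives no support, was among the 7, the 2 and the 4 members. The count for the difference, 6, went to 0 under edgeR's test, 0 without weights, 3 with filterByExpr, 1 with transcript totals, 0 and 2 with the muscle and adipocyte scores, 2 after removing the GC trend, 3 without ribosomal RNA genes and 2 without Con+Veh 2 and STZ-HFD 4. Over all tested genes, calls higher for the difference went from 161 to 0, 0, 90, 32, 7, 41, 51, 117 and 55 in those fits, in the order given. Ratio pairs without overlap went from 0 to 1 in db/db and from 5 to 2 in STZ-HFD with transcript totals, which covered 3 pairs. Over the 14 fits without 1 library, calls ran from 0 to 1 higher and 0 to 1 lower in db/db, 0 to 11 higher in STZ-HFD and 0 to 7 for the difference, and separated ratio pairs in db/db from 0 to 3. Over all tested genes, calls in these fits ran from 12 to 293 higher and 2 to 99 lower in db/db. They ran from 3 to 311 higher in STZ-HFD and 1 to 274 higher for the difference. The cause of these changes was not tested.

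With the replicate block, although the numbers pair no mice, 3 members were called lower in db/db (*Pkm*, *Gapdh* and *Eno1*), 0 higher in STZ-HFD and 0 for the difference, while over all genes 796 were called higher and 688 lower in db/db and 2 and 4 in STZ-HFD.

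Depth limited *Hk3*, *Fbp1* and *Fbp2*, which had 0 to 39 counts in the control libraries. The transcript table used here listed all principal transcripts of 14 members and not of the other 21. In the fits without 1 library the remaining libraries share 1 estimate of the spread.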
